A study of Mus musculus with 8 samples.

Results

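Loss of the inhibitory receptor PD-1 in young mice was described from CD8 T cells of 4 groups of C57BL/6 mice at 2 months of age, each measured on 1 one-colour Agilent array: WT tumor-free, PD-1KO tumor-free, WT bearing the MC38 tumor and PD-1KO bearing the MC38 tumor. These are 4 of the 8 arrays of the series, chosen by the labelled age. The other 4 hold the same groups at 17 months and were used as a separate readout, to give the statistical models a spread, and in 1 fit that estimates a single genotype effect over both ages. Cells were taken from lymph nodes with CD8a micro beads. Tumor-free mice gave peripheral nodes, and tumor-bearing mice gave draining nodes 9 days after inoculation of MC38, a colon carcinoma line of the C57BL/6 strain. The series design names the mutant genotype PD-1-/-, and MC38 inoculation is the sole intervention the labels give. The labels do not say whether 1 array holds 1 mouse or a pool, nor how many mice were used or of which sex. With 1 array per group a difference within a pair has no replicate check, so it is given as a size with no p-value, and the number of arrays limits the precision of every value.

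PD-1, encoded by Pdcd1, is a receptor that appears on T cells after they meet antigen. When bound by its ligands PD-L1 or PD-L2 it recruits the phosphatase SHP2 and weakens signals from the T cell receptor and from the co-receptor CD28. In tumors and their draining nodes this pathway restrains the division of CD8 T cells, their production of cytokines and their loading with granzymes, the proteases that kill target cells.

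Levels are log2 of the processed signal minus the 75th percentile of the same array. A difference is the PD-1KO level minus the WT level, on this log2 scale, and 2-fold is a difference of 1. A feature is 1 gene, read from 1 probe, or 1 probe without a gene symbol, and 21554 features were kept as well above background on 2 or more of the 4 young arrays. Of these, 12890 had a symbol. For folds, a value not well above background was raised to the lowest level that was well above background on its array. Folds against it are thus lower bounds, written as "at least". Printed levels and limma fits used the values as read, with no such floor.

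The 4 young arrays were alike in brightness, with signals of 339 to 368 at the 75th percentile and 46.4% to 49.5% of probes well above background. Genes of CD8 T cells were present on all 4: the 15 measured genes of the CD8 T cell core summed to between 1855 and 1942 in linear units of the 75th percentile, and none of them was 2-fold apart in either pair. Cd8a, the chain bound by the beads, read 4.97 in WT and 4.91 in PD-1KO without a tumor, and 4.88 and 4.58 with one. B cell, dendritic cell and macrophage genes were also present, at sums between 142 and 530 across the 4 arrays. The dendritic cell list shares Ccr7 with the list of naive T cell genes, so its sum does not measure dendritic cells alone. The Y-linked genes listed were above background on too few young arrays to be kept, while Xist was above it on all 4. Bulk RNA cannot tell fewer cells of a type from less RNA per cell.

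Differences depended on probe position, most of all on 1 array. On the array of tumor-bearing PD-1KO mice, features whose probes lie in the outermost 16 rows at the top and bottom of the array read lower than WT more often than elsewhere. In the tumor-bearing pair, 84 of 1823 features in those rows (4.61%) were 2-fold lower in PD-1KO, against 52 of 1829 (2.84%) in the outermost 8 columns and 206 of 17902 (1.15%) in the rest of the array. Shares of features 2-fold higher differed less, at 2.96%, 3.12% and 2.27%. The tumor-free pair had more such features at the edges too, at smaller shares: 1.04% were 2-fold lower and 0.658% higher in the outermost rows, 0.984% and 0.929% in the outermost columns, and 0.497% and 0.29% elsewhere. Of the genes named below, Stk25, Ube2c, Anxa1, Prf1, Klrb1c, Klre1 and Itgax have probes in the outermost rows, beside those marked so where they appear. Among genes named for the size of their difference, Syt10, Pam, Ccr10, Olfr1466 and Rpl14 have probes in the outermost columns. What produces the pattern was not tested.

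**Figure D1:**
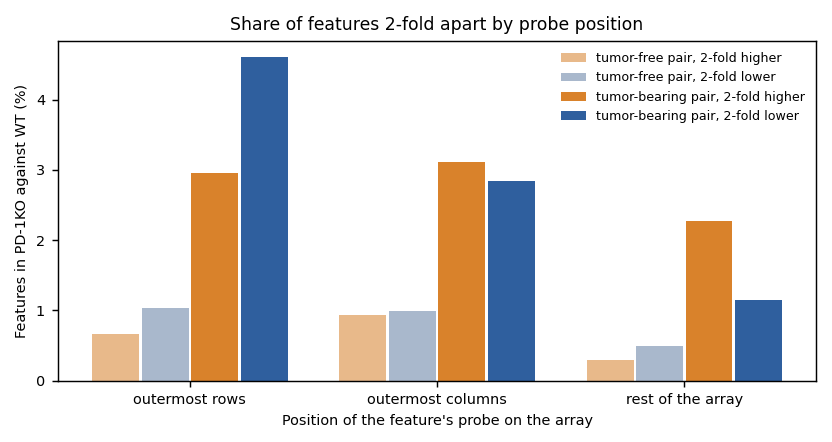
Percent of features 2-fold higher (orange) or lower (blue) in PD-1KO than in WT in the tumor-free pair (pale) and the tumor-bearing pair (dark), by whether the feature's probe lies in the outermost rows, the outermost columns or the rest of the array. The tallest bar, 4.61%, is the tumor-bearing pair's lower features in the outermost rows.

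Pdcd1 itself, the disrupted gene, was read by 1 probe and stayed well above background on every array. Its level was -0.79 in WT and -1.45 in PD-1KO without a tumor, and 1.03 in WT and -0.35 in PD-1KO with one. PD-1KO was thus the lower array of both pairs, by 0.66 and by 1.38 on the log2 scale, the last being 2.60-fold, and the highest of the 4 values was that of tumor-bearing WT mice. In the limma fit over all 8 arrays the young difference was -1.02 (SE 0.50; Benjamini-Hochberg adjusted p = 0.999). At 17 months the order was not kept: the level was -0.10 in WT and 1.87 in PD-1KO without a tumor, and 2.73 and 2.74 with one. Where the probe lies relative to the disrupted part of the gene is not known here, and its spot is in one of the outermost rows, so these values do not check the genotype labels and the arrays are called by their labels throughout.

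Across the genome the tumor-free pair differed little and the tumor-bearing pair more. Without a tumor, 81 features (0.376%) were 2-fold higher in PD-1KO and 126 (0.585%) were 2-fold lower. With MC38, 518 features (2.4%) were 2-fold higher and 342 (1.59%) were 2-fold lower. The middle 90% of differences ran from -0.42 to 0.39 without a tumor and from -0.66 to 0.67 with one, around medians of -0.01 and -0.03. The pairs share no array, and their differences correlated at r = 0.19 (rho = 0.22) across 20882 features, which are not independent replicates.

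Probes of the same gene gave a check of single spots. Of 105 genes 2-fold higher in the tumor-bearing pair that have a second probe, 98 had the same sign on it and 72 were again 2-fold apart, with a median of 1.26 on the log2 scale. Of 45 genes 2-fold lower, 36 had the same sign, 13 were again 2-fold apart, and the median was -0.28. A 2-fold difference was thus seen on a second probe for most of the higher genes and for fewer than 1 in 3 of the lower ones, shares whose difference was not tested.

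**Figure D2:**
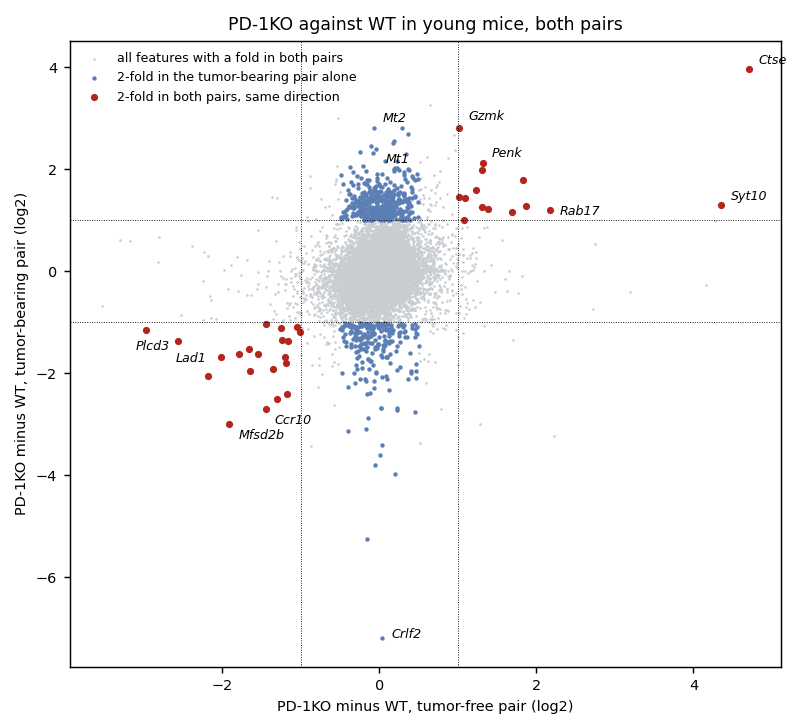
Each point is 1 feature, placed by its PD-1KO minus WT difference (log2) in the tumor-free pair on the horizontal axis and in the MC38-bearing pair on the vertical axis. Red marks the 36 features 2-fold apart the same way in both pairs, blue those apart in the tumor-bearing pair alone, and the cloud is wider vertically than horizontally.

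A small group of genes was 2-fold apart between the genotypes whether or not the mice bore a tumor. Cathepsin E (Ctse), well above background on all 4 arrays, was 26.1-fold and 15.6-fold higher in PD-1KO. Also higher were renin (Ren1), proenkephalin (Penk), the granzyme Gzmk and the stem cell antigen Ly6a, while the ladinin gene Lad1, the transporter Mfsd2b and the chemokine receptor Ccr10 were among those lower. In all, 15 features (0.0696%) were 2-fold higher in PD-1KO in both pairs, 21 (0.0974%) were 2-fold lower in both, 7 (0.0325%) were 2-fold higher without a tumor and 2-fold lower with one, and 2 (0.00928%) the reverse. The olfactory receptor gene Olfr678 led the opposite ones, at least 4.69-fold higher and then at least 9.34-fold lower in PD-1KO, from a probe in the outermost rows that was not well above background on any aged array. The rule chose these features on the young arrays themselves, so their young values are a description. Of them, 11 higher and 13 lower carry gene symbols, and 7 of the 15 and 14 of the 21 were well above background on all 4 young arrays. Just inside the 2-fold limit lay Syce1, at 1.08 and 1.01 in the tumor-free and the tumor-bearing pair. Just outside it lay Grn at 4.27 and 0.98 among the higher and Coro2b at -1.23 and -0.95 among the lower.

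Ctse encodes an aspartic protease of endosomes and lysosomes. It read -0.25 in WT and 4.46 in PD-1KO without a tumor, and -0.10 in WT and 3.86 in PD-1KO with one. Both PD-1KO arrays lay far above both WT arrays. The young estimate in limma was 4.34 (SE 0.23; Benjamini-Hochberg adjusted p = 0.112). The aged arrays, which the rule did not use, gave -0.11 in WT and 4.15 in PD-1KO without a tumor and -0.39 and 3.73 with one, and the young and aged effects differed by 0.15 (SE 0.32; adjusted p = 0.988 in limma). Ren1 encodes renin, the aspartic protease that starts the angiotensin cascade. It was not well above background in either WT array, at -4.22 and -4.26, and read -2.12 and -1.81 in the PD-1KO arrays, which is at least 3.56-fold higher without a tumor and at least 3.48-fold higher with one.

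Gzmk and Ly6a were higher in both pairs and further apart in the tumor-bearing one. Granzyme K, a serine protease of memory and effector CD8 T cells, read -2.97 in WT and -1.95 in PD-1KO without a tumor and 0.53 and 3.35 with one, a step of 2.03-fold and then of 7.05-fold. Both tumor-bearing arrays lay above both tumor-free ones. Ly6a, an interferon-inducible surface antigen also called Sca-1, read 2.44, 3.46, 3.24 and 4.69 in the order WT and PD-1KO tumor-free, then WT and PD-1KO tumor-bearing. Penk, the precursor of the enkephalin opioid peptides, read -1.43, -0.11, -1.10 and 1.04 in that order, so that neither PD-1KO array fell within the range of the WT arrays. Under normexp background correction some of these fell short of 2-fold: Ren1 was at 0.80 and 0.997 on the log2 scale without and with a tumor, and without a tumor Penk was at 0.97 and Gzmk at 0.50. Without scaling of the arrays Ly6a was at 0.997 without a tumor.

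Fosb, a subunit of the transcription factor AP-1, read 2.68, 3.77, 2.00 and 3.44 in that order, and its second probe was 0.75 and 1.78 higher in PD-1KO in the tumor-free and the tumor-bearing pair. Smpdl3b, a phosphodiesterase anchored on the cell surface, was at least 2.46-fold higher without a tumor and 3.95-fold higher with one. Syt10, a calcium sensor of vesicle release, Pam, an enzyme that amidates peptide hormones, and Rab17, a small GTPase of membrane transport, were not well above background in either WT array, and their lower bounds ran from 2.30-fold to 20.5-fold. Second probes of Pam differed by 0.20 and 0.18 and those of Rab17 by 0.94 and 0.97, below 2-fold in each pair. The probes of Fosb, Syt10 and Rab17 lie in the outermost rows.

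Among genes lower in both pairs, Lad1, which encodes a filament protein of basement membranes, read 1.87 in WT and -0.15 in PD-1KO without a tumor and 1.86 and 0.18 with one. Its second probe gave differences of -1.91 and -1.92. Both PD-1KO arrays lay below both WT arrays on each of its probes. Ccr10, a chemokine receptor of skin-homing lymphocytes, read -1.35 and -2.80 without a tumor and -0.57 and -3.27 with one. Mfsd2b, a transporter that exports sphingosine-1-phosphate from blood cells, read 7.54 and 5.63, then 7.38 and 4.38. Its probe lies in the outermost rows and a second probe was above background on too few arrays to compare. Stk25, a kinase of the Golgi apparatus, was 2.36-fold and 2.56-fold lower, and its second probe differed by -1.09 and -1.52. Mogat1, an enzyme that makes diacylglycerol, differed by -1.16 and -1.37, and its second probe by -0.09 and -0.22. The olfactory receptor gene Olfr1466 differed by -1.18 and -2.40. Plcd3, a phospholipase C, was at least 7.83-fold lower without a tumor and 2.22-fold lower with one. The second probe of Plcd3, well above background on 3 young arrays, differed by -2.10 without a tumor and by -0.35, below 2-fold, with one.

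Cbr2, Cd209f and F13a1 were also lower in both pairs. Their tumor-bearing arrays read below the tumor-free ones in both genotypes, as did those of Mfsd2b, Stk25 and Olfr1466. Cbr2, a carbonyl reductase, read 1.48 and 0.17 without a tumor and 0.15 and -2.36 with one. Cd209f, a lectin of the DC-SIGN family, and F13a1, the catalytic chain of a clotting factor made by macrophages, were not well above background on the tumor-bearing PD-1KO array and at least 3.20-fold and 3.46-fold lower there. The macrophage and monocyte list was lower as well in the tumor-bearing pair, at a median of -0.85 over 22 measured genes. In the tumor-free pair its median was -0.17. Its summed level was 182 in WT and 179 in PD-1KO without a tumor and 156 and 142 with one, and its part in these differences was not tested.

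**Figure D3:**
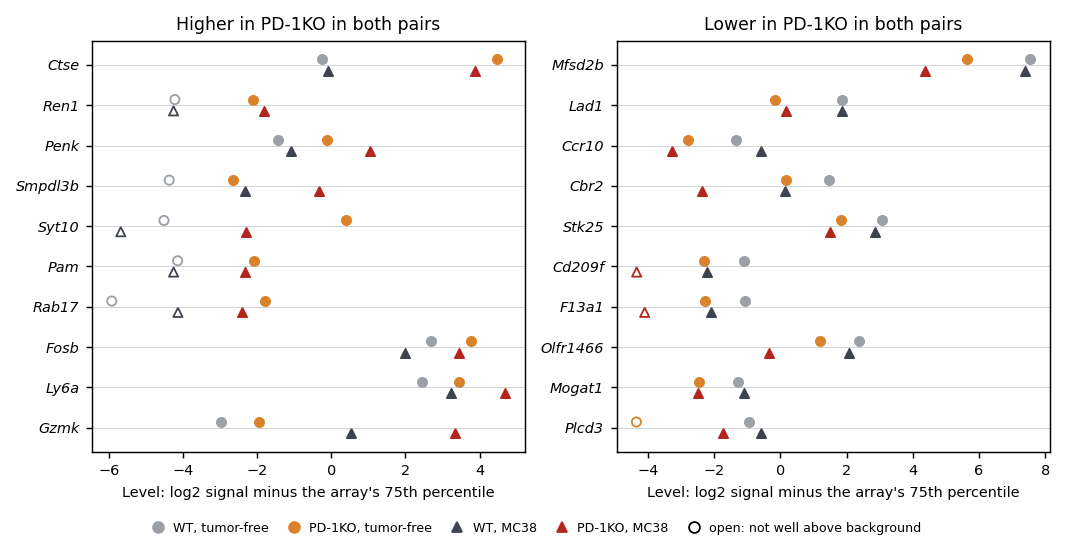
Level (log2 relative to the 75th percentile of each array) on the 4 young arrays of the 10 genes with the greatest smaller difference in each direction among those 2-fold apart the same way in both pairs. Open points were not well above background. The 2 Ctse points of PD-1KO lie at 4.46 and 3.86 while its WT points lie at -0.25 and -0.10.

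The genes that differed in both pairs were crowded on chromosome 1, which also holds Pdcd1. Of the 24 with symbols, 9 (37.5%) lie there, against 723 of all 12890 features with symbols (5.61%). Put the other way, 1.24% of the measured genes of chromosome 1 were in this group, against 15 of 12167 (0.123%) on the other chromosomes. Ctse, Ren1, Pam, Lad1, Rab17, Stk25, Mogat1, Utp14b and the predicted gene Gm31982 made up the 9. In the order of protein-coding genes, Stk25 lies 10 genes before Pdcd1 and Pam 9 genes after it, Rab17 lies 56 before, Utp14b 157 and Mogat1 159 before, and Ctse 106, Ren1 133 and Lad1 176 after. Gm31982 was not placed in this order. Among the 65 measured genes within 60 coding genes on either side of Pdcd1, 3 were 2-fold apart in both pairs and 43 (66.2%) had the same sign in both, against 56.1% of all features.

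The aged arrays, which the rule did not use, gave a separate readout of these genes. Of the 36 features, 33 had a fold in both aged pairs, 24 of these kept the young sign in both, and 7 were again 2-fold apart in both. Over all features, 95 (0.441%) were 2-fold apart the same way in both aged pairs. How many of all features keep a young sign in both aged pairs was not counted, so the sign counts have no such share beside them. Of the 9 genes of chromosome 1, 8 had a fold in both aged pairs, all 8 kept their sign and 5 were again 2-fold apart in both. Of the 15 genes elsewhere, 13 had a fold, 8 kept their sign in both, none was 2-fold apart in both and 3 had the opposite sign in both. Gzmk was among those that varied, at 1.99 in the aged tumor-free pair and -0.48 in the aged tumor-bearing pair. Ly6a was at 1.37 and 0.38, Penk at 2.79 and 0.74, and Lad1, on chromosome 1, at -2.23 and -0.86.

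No feature passed the adjusted threshold when the 2 young pairs were tested together. The limma fit over 8 arrays, with 2 residual degrees of freedom, called 0 features at a Benjamini-Hochberg adjusted p of 0.05, and 729 (3.38%) had an unadjusted p under 0.05. For the difference between the young and the aged effect the counts were 0 and 744 (3.45%). For the genotype effect with against without a tumor, averaged over ages, they were 0 and 725 (3.36%), and the young arrays alone, with 1 residual degree of freedom, gave 0 and 1396 (6.48%). A fit with 1 genotype effect for both ages called 5 features (0.0232%), among them Ctse at 4.26 (SE 0.14; Benjamini-Hochberg adjusted p = 0.000414), Ren1 at 2.24 (SE 0.11; adjusted p = 0.00235) and Il10, an anti-inflammatory cytokine also encoded on chromosome 1, at 2.19 (SE 0.16; adjusted p = 0.0289). Ren1 was not well above background on any WT array, and its estimate used those dim values as read. In simulated data of this shape the fit over 8 arrays recovered none of the changes of 1 on the log2 scale, 43% of those of 2 and 82% of those of 4. Among features left unchanged there, 125 to 137 were 2-fold apart the same way in both young pairs, with no floor applied. In the measured data, with the floor, 36 features were. The simulated noise was drawn from each feature's residual spread over all 8 arrays, aged ones included, so it need not match the young pairs. The recoveries hold for that noise alone, and these counts do not say how many of the 36 reflect genotype. With 1 array per group, passing the 2-fold rule does not by itself show a difference with genotype.

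Il10 missed the 2-fold rule narrowly. It was not well above background in either WT array, at -4.72 and -3.56, and read -2.98 and -1.18 in the PD-1KO arrays, at least 1.96-fold higher without a tumor and at least 5.19-fold higher with one. In the aged arrays it was measured on all 4 and 3.99-fold and 6.24-fold higher in PD-1KO.

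In tumor-bearing young mice a much greater number of genes differed with genotype, and most of these showed no such difference without a tumor. Cell cycle genes made up the largest block of the higher ones among the lists compared, beside the metallothioneins Mt1 and Mt2, the galectin Lgals3, granzymes, and receptors of activated T cells such as Havcr2 and Il2ra. Counting features 2-fold apart with MC38 and less than 1.41-fold apart without it, 398 (1.85%) were higher in PD-1KO and 239 (1.11%) lower. The reverse counts, apart without a tumor alone, were 37 (0.172%) and 59 (0.274%). For 20 of the 398 and 4 of the 239 the tumor-free value was a bound, so their difference without a tumor could exceed 1.41-fold. Whether the genotype effect differs between tumor states cannot be tested in young mice alone.

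The higher features were for the most part ones that also read higher in tumor-bearing than in tumor-free WT mice. Their median level was -1.25 in WT and -1.21 in PD-1KO without a tumor, 0.01 in WT with MC38 and 1.47 in PD-1KO with MC38. Of the 398, 359 were higher in WT mice with the tumor than in WT mice without it, a comparison between arrays of 1 genotype that the rule did not fix, unlike the close tumor-free levels and the high level in tumor-bearing PD-1KO mice. Of the 239 lower features, 127 were higher in WT mice with the tumor. The share over all features was not counted, so these counts are not read as particular to these features. This comparison also sets draining nodes against peripheral nodes, which cannot be told apart from the tumor here. In the aged arrays, 295 of 384 of these features were higher in PD-1KO without a tumor (median 0.27) and 239 of 394 with one (median 0.12), against 8836 of 20769 and 9953 of 20782 of all features. In the aged tumor-free pair, 40 of them were 2-fold higher, where 1.14% of all features were 2-fold higher and 1.12% lower. In the aged tumor-bearing pair, 37 were 2-fold higher and 12 lower, where 3.26% of all features were higher and 4.48% lower.

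Mt1 and Mt2 encode metallothioneins, small cysteine-rich proteins that bind zinc and copper. They are induced by metals, through metal response elements in their promoters, and by glucocorticoids and stress. Both genes lie side by side on chromosome 8, and their upstream sequences are shown because they differed together. The 250 bases before each RefSeq transcription start in GRCm38.p6 follow, both on the plus strand, Mt1 at chr8:94178839-94179088 and Mt2 at chr8:94172368-94172617. Capitals mark matches to the core of the metal response element, searched as TGCACNC and TGCGCNC on both strands.
Mt1: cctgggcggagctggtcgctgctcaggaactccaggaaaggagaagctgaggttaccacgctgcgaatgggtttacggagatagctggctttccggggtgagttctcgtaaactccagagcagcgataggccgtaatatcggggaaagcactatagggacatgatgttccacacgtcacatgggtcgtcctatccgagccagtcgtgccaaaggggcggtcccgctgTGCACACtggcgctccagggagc
Mt2: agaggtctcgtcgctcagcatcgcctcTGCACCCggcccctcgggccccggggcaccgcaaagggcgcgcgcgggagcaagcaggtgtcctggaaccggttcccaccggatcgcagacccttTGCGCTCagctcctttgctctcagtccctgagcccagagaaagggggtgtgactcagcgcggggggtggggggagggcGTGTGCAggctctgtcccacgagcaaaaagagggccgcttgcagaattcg
Mt1 held 1 match in this window and Mt2 held 3. Among all 32851 windows of this length, 21.4% held at least 1 match and 1.26% held 3 or more. Bases past the RefSeq start or further upstream were not searched, so these counts do not cover the whole promoter of either gene. A match is a description of letters and not a bound site.

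Mt2 read 1.86 in WT and 1.79 in PD-1KO without a tumor and 1.92 in WT and 4.74 in PD-1KO with one, a difference of 7.06-fold in the tumor-bearing pair. Mt1 read 2.33, 2.30, 3.21 and 5.61 in the same order, 5.27-fold apart with MC38. For both genes the tumor-bearing PD-1KO array was the highest and the tumor-free arrays were close to each other. In the aged arrays the pair behaved otherwise: Mt2 differed by -0.90 without a tumor and 0.54 with one, and Mt1 by -0.89 and 0.20.

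Other genes high on the tumor-bearing PD-1KO array were graded with the tumor in WT as well. Lgals3, a galactose-binding lectin induced in activated T cells and abundant in macrophages, read 2.96 and 2.71 without a tumor and 4.93 and 7.27 with one, and its second probe gave 2.38 against 2.34 for the pair with MC38. Havcr2, which encodes the inhibitory receptor TIM-3, read -1.27 and -1.06, then 0.31 and 2.33. Esm1, a secreted proteoglycan, read -3.59 and -3.67, then -0.57 and 1.76. In each of these the tumor-bearing WT array lay above both tumor-free arrays, which the choice of genes did not fix.

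Ncald, a neuronal calcium sensor, was 2.30 higher in the tumor-bearing pair, and Myl6b, a myosin light chain, was 2.03 higher, on the log2 scale. Csprs, at 2.56, the glutathione transferase Gstt1, at 2.06, and the mucin Muc20, at 2.05, have probes in the outermost rows. The aged pairs gave different orders for some of these genes: Esm1 differed by 1.77 without a tumor and -2.11 with one at 17 months, and Havcr2 by 1.75 and 0.30.

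**Figure D4:**
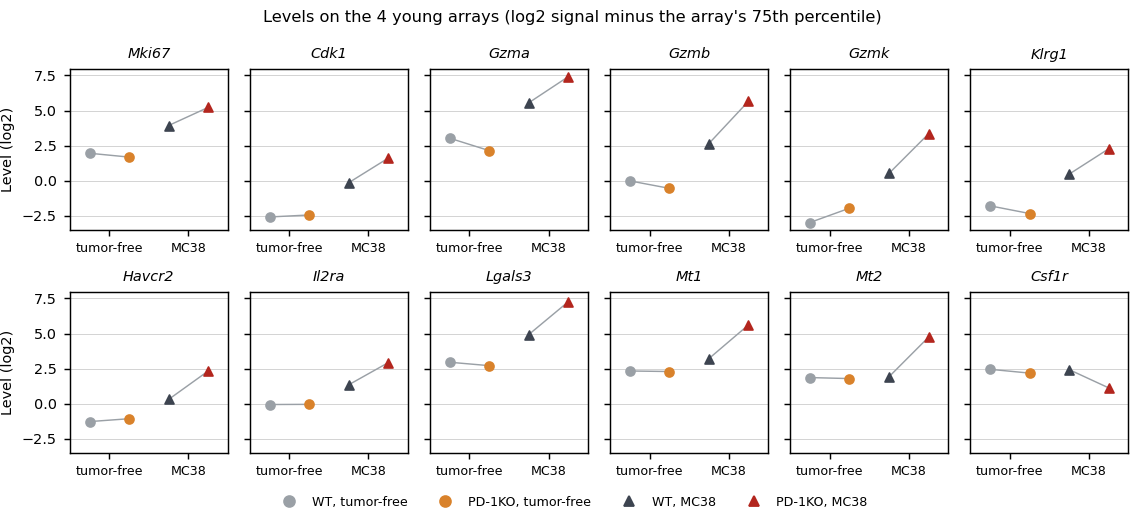
Level (log2 relative to the 75th percentile of each array) of 12 genes on the 4 young arrays, 1 panel per gene on a shared vertical axis, with a line from WT to PD-1KO within each tumor state. In each panel PD-1KO and WT are closer without a tumor than with MC38. Without a tumor Gzmk is still 2.03-fold higher in PD-1KO, and Gzma, Gzmb and Klrg1 lie lower. With MC38 the PD-1KO point of Gzmb reaches 5.66 against 2.65 in WT and that of Csf1r lies at 1.13 against 2.43.

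The cell cycle list gave the most uniform difference. Of its 50 genes, all measured, 40 were 2-fold higher in PD-1KO in the tumor-bearing pair, 49 were above 0 there, and none was 2-fold apart without a tumor. Over all features 2.4% were 2-fold higher with MC38. The median difference was 1.31 with MC38 and 0.01 without it, against -0.03 and -0.01 for all features. One gene went the other way: Ccne2, a cyclin of the entry into DNA replication, was at least 3.54-fold lower, and its probe lies in the outermost rows. Without probes at the edges of the array 36 of 43 measured genes were 2-fold higher, at a median of 1.32. Limma called 0 of the 50 at a Benjamini-Hochberg adjusted p of 0.05, and 3 had an unadjusted p under 0.05.

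Summed over the list, the level was 251 in WT and 242 in PD-1KO without a tumor, 557 in WT with MC38 and 1186 in PD-1KO with MC38. At 17 months the same sums were 273, 282, 535 and 533, close to each other in the aged tumor-bearing pair, where the median difference was 0.01 with single genes on either side. Cell cycle genes made up 12.1% of the 313 genes with symbols that were higher in the tumor-bearing pair alone. A library with a greater share of dividing cells and one with more such RNA per dividing cell cannot be told apart here.

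Cdk1, the kinase that drives entry into mitosis, read -2.57 and -2.43 without a tumor and -0.13 and 1.62 with one. Aurkb, a kinase of chromosome segregation, read -2.46, -2.01, 0.15 and 1.61 in the same order, Bub1b, of the spindle checkpoint, read -2.62, -2.36, -0.58 and 0.97, and Ube2c, the ubiquitin-conjugating enzyme of mitotic exit, read 0.00, 0.11, 2.36 and 3.96. In all 4 genes the tumor-bearing WT array also lay above the tumor-free arrays. Mki67, the proliferation marker detected as Ki-67, read 1.96, 1.69, 3.94 and 5.22, with an aged tumor-bearing difference of -0.81. At 17 months Cdk1 kept its sign in both pairs, at 1.15 and 1.68.

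The Cdk1 promoter is shown as an example from this list, because some genes of the list carry known promoter elements of the cell cycle. The 250 bases before its RefSeq start in GRCm38.p6 lie at chr10:69352913-69353162 on the minus strand, with capitals for matches, on either strand, to E2F-type sites (TTTCCCGC, TTTGGCGC, TTTCGCGC or TTTGCCGC) and to the cell cycle homology region (TTTGAA).
Cdk1: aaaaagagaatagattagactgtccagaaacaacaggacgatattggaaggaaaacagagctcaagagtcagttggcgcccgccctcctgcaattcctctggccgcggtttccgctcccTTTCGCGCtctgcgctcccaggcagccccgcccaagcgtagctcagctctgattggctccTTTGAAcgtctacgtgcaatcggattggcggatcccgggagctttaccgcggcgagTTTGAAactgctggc
The window held 1 E2F-type match and 2 matches to the homology region. Of the 41 cell cycle genes with a window in the table, 6 (14.6%) held an E2F-type match and 13 (31.7%) the homology region, against 1.86% and 16% of all windows. Of the 33 with a window that were 2-fold higher in the tumor-bearing pair, 4 (12.1%) held an E2F-type match and 12 (36.4%) the homology region. None of these counts says that a factor binds there, and a link between the matches and the differences was not tested.

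The list of effector and memory genes differed less uniformly. Of 37 genes 35 were measured, 12 were 2-fold higher in the tumor-bearing pair and none was 2-fold lower, where 2.4% and 1.59% of all features were, and none was apart without a tumor. The median was 0.53 with MC38 and -0.03 without it. Lgals3 led the list, followed by Anxa1, the calcium-dependent membrane protein annexin A1, which read -0.16, -0.19, 0.28 and 2.12. Itga1, the collagen-binding integrin of tissue-resident cells, was at least 2.30-fold higher with MC38.

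Klrg1, an inhibitory lectin receptor of terminal effector cells, read -1.78 and -2.33 without a tumor and 0.47 and 2.28 with one, and differed by -2.14 in the aged tumor-bearing pair. Lgals1 and S100a6, a galectin and a calcium-binding protein that are abundant in effector cells, were 1.65 and 1.71 higher with MC38 on the log2 scale. Tbx21, the gene of the effector transcription factor T-bet, read 2.11, 1.99, 2.81 and 3.77, just under 2-fold apart in the tumor-bearing pair. Tumor-bearing PD-1KO was the highest of the 4 young arrays for each of these 4 genes.

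Among 26 genes of cytotoxicity and effector cytokines, 23 were measured, and 8 were 2-fold higher in PD-1KO with MC38, against 2.4% of all features. Without a tumor 1 was higher, Gzmk, and 1 was lower, Gzmc, where 0.376% and 0.585% of all features were. The medians were 0.37 and 0.05. Gzmb, the granzyme that starts apoptosis in target cells, read 0.00 in WT and -0.53 in PD-1KO without a tumor, then 2.65 and 5.66 with one, an 8.05-fold difference with MC38. Gzma read 3.03 and 2.15, then 5.56 and 7.42. For both granzymes PD-1KO was the lower array without a tumor and the higher one with it. Gzmc ran the other way, at 0.03 and -2.11 without a tumor and -1.03 and -1.94 with one.

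Ifng, the gene of interferon gamma, read 2.96, 3.57, 3.66 and 4.72, higher in PD-1KO by 0.61 and 1.06. The gene of perforin, Prf1, which opens the pores that granzymes pass through, did not follow them: it read 2.25, 2.31, 2.20 and 1.88. Granzymes in the aged tumor-bearing pair were not higher in PD-1KO by 2-fold, at 0.15 for Gzmb, -2.76 for Gzma and -0.48 for Gzmk.

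Inhibitory receptors and genes of T cell exhaustion were mostly close in level. Of 22 genes 21 were measured and 3 were 2-fold higher with MC38, against 2.4% of all features, with medians of 0.22 with the tumor and 0.12 without it. The 3 were Havcr2, Tigit, a receptor that competes for the ligands of CD226, and Casp4, an inflammatory caspase. Tigit read -1.43, -1.30, -1.43 and -0.09, and Casp4 read 1.02, 1.41, 1.67 and 2.84. Lag3, an inhibitory receptor for class II molecules, read -0.68, -0.28, 0.28 and 1.13, under 2-fold apart in each pair. Tox, a transcription factor of exhausted cells, read 2.56, 2.36, 2.22 and 2.02 and was in neither pair higher in PD-1KO.

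The PD-1 pathway and T cell receptor signalling genes were flat. All 26 were measured, Pdcd1 was the sole gene 2-fold apart, in the tumor-bearing pair, and the medians were -0.03 and -0.11. Sh2d1a, an adaptor of the SLAM receptors, was 0.33 and 0.41 higher in PD-1KO, and Rasgrp1, which activates Ras, was at -0.11 and -0.40. Of 30 early activation genes 28 were measured; Fosb was 2-fold higher in both pairs and Il2ra with MC38 alone. Il2ra, the high-affinity subunit of the interleukin-2 receptor, read -0.05, -0.04, 1.35 and 2.93. Ier3, an immediate early gene, was 0.52 and 0.98 higher and Fosl2, another AP-1 subunit, was at -0.56 and -0.84, so AP-1 genes did not all lie on one side.

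Naive and quiescence genes lay slightly lower in tumor-bearing PD-1KO mice. None of 24 was 2-fold apart, but 2 of 24 were above 0 with MC38, at a median of -0.29, against -0.06 without a tumor. Their summed level was 1273, 1248, 1166 and 945 on the 4 young arrays. Lef1, a transcription factor of naive T cells, read 6.77, 6.59, 6.66 and 5.88, and Dapl1 read 6.07, 5.87, 6.02 and 5.34. The 2 above 0 were Ramp1, a receptor-modifying protein, at 0.74 and 0.39, and Art2b, a surface ADP-ribosyltransferase, at 0.69 and 0.33.

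NK cell receptors divided. Of 26 genes 20 were measured, and none was 2-fold apart without a tumor. With MC38 3 were higher and 3 lower, where 2.4% and 1.59% of all features were, at a median of -0.45. The higher ones were Klrc1, Klrg1 and Klrk1, receptors that effector CD8 T cells also carry, and Klrc1 read -3.87, which was not well above background, then -3.68, -2.77 and -0.80. The lower ones were Klra7, Klrb1a and Klre1, at -1.10, -1.14 and -1.28. Of 12 markers of NK and innate lymphoid cells 10 were measured, at medians of -0.12 without a tumor and -0.46 with MC38. Without a tumor 4 of the 10 were above 0, and with MC38 3 were above 0 and 1 was 2-fold lower. Fcer1g read 2.53, 2.24, 2.08 and 1.44, and Klrb1c was at -0.42 and -0.74 in the tumor-free and the tumor-bearing pair. Ncr1 and Klri2 were above background on too few arrays to be kept. The part of NK cells in these differences was not tested.

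Interferon response genes showed no shared difference: 44 of 49 were measured, 1 was 2-fold higher and 1 lower without a tumor, 2 were higher with MC38, and the medians were -0.07 and 0.07. Over all features 0.376% were higher and 0.585% lower without a tumor, and 2.4% were higher with MC38. Ly6a and the interferon-inducible GTPase Iigp1, at 1.39, 2.04, 1.39 and 2.69, were the 2 genes of the list higher with MC38. Rsad2, the antiviral enzyme viperin, was 2.09-fold lower in PD-1KO without a tumor and 1.03-fold lower with one. Ifi44 was 0.57 and 0.91 higher.

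Few metabolic genes were 2-fold apart. Among 25 glycolysis genes, all measured, 2 were 2-fold higher with MC38, at a list median of 0.26: the lactate exporter Slc16a3, at -1.08, -1.36, -0.26 and 1.45, and the triose phosphate isomerase Tpi1, at 3.39, 3.47, 3.99 and 5.09. Among 26 measured genes of one-carbon and serine metabolism, 2 were higher, at a median of 0.32. Over all features 2.4% were higher, so counts this small are not read further. One was thymidylate synthase (Tyms), which makes thymidine for DNA, at 1.45, 1.66, 3.45 and 4.71. Its tumor-bearing arrays lay above tumor-free ones in each genotype. None of 28 measured genes of fatty acid oxidation and mitochondrial biogenesis was 2-fold apart in either pair, at medians of 0.02 and 0.04.

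Of 28 chemokine genes 21 were measured, with medians of -0.09 and -0.21. Ccl3, an inflammatory chemokine secreted by activated CD8 T cells, read 0.14, 0.80, 0.78 and 2.37. Cxcl1, a neutrophil chemokine, read -0.20 in tumor-free WT mice and -2.73, -1.28 and -2.14 on the other arrays. Ccl8, a monocyte chemokine made by macrophages, read 2.27, 2.04, 2.05 and 0.54, from a probe in the outermost rows. Ccl3 was thus highest on the tumor-bearing PD-1KO array and Ccl8 lowest there.

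**Figure D5:**
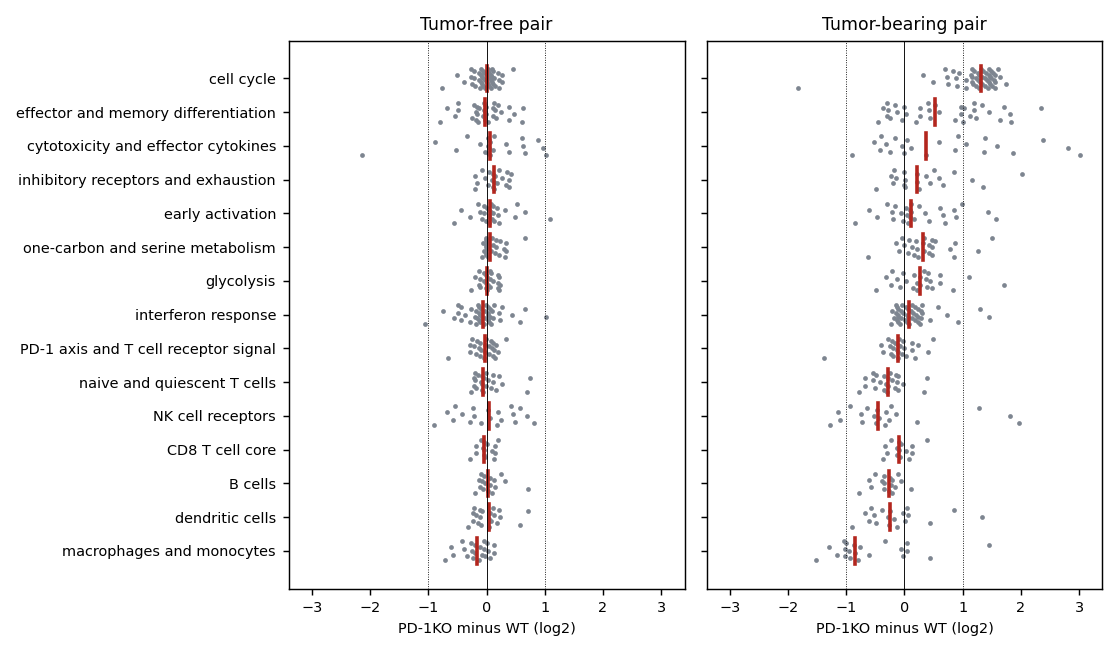
PD-1KO minus WT difference (log2) of each measured gene of 15 lists in the tumor-free and the tumor-bearing young pair, 1 point per gene, with a red bar at the list's median. The cell cycle list shifts from a median of 0.01 to 1.31 and the macrophage and monocyte list from -0.17 to -0.85.

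The features with the largest lower values in the tumor-bearing pair alone lay mostly at the edge of the array. Of the 10 genes with the largest such differences, 7 have probes in the outermost rows, against 3 of the 10 with the largest higher ones. Crlf2, a subunit of the receptor for the epithelial cytokine TSLP, read 5.53, 5.56, 5.61 and -1.58, a difference of -7.19, from a probe in the last row. Its second probe read 0.65, 0.77, 0.73 and 0.76, level on all 4 arrays. Plekha6, with a lipid-binding domain, was at least 15.7-fold lower on 1 probe and was not 2-fold lower on its second probe.

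E2f4, a transcription factor that represses cell cycle genes in quiescence, was at least 14.0-fold lower, and Tspyl2, a nucleosome assembly protein, read 0.73, 0.74, 0.53 and -3.07. These, too, come from the outermost rows, as do B3gnt9, a glycosyltransferase, and Cpne3, a calcium-dependent lipid-binding protein whose second probe was 0.14 higher. With the probes of the outermost rows and columns left out, 211 features were 2-fold lower in the tumor-bearing pair, 208 of them among the 342, and 422 were 2-fold higher, 421 of them among the 518.

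Lower genes away from the outermost rows included the heat shock genes Hspa1a and Hspa1b, inducible chaperones of the HSP70 family. Hspa1a read 1.08, 1.31, 3.01 and 0.28, and Hspa1b read 0.68, 1.13, 2.87 and 0.12. Tumor-bearing WT was the high array of both, above the other 3. Their sequences are nearly identical, so the probes may read each other's RNA. In the aged tumor-bearing pair the difference was the other way, at 3.60 and 2.98. Hif3a, a member of the hypoxia-inducible factor family, read -3.38, -3.78, -0.56 and -3.69, again high in tumor-bearing WT alone.

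Genes of macrophages and monocytes were also lower in tumor-bearing PD-1KO mice. Of 23 genes 22 were measured, 6 were 2-fold lower with MC38 and 1, Ccr2, was higher, where 1.59% of all features were lower and 2.4% higher, and none was apart without a tumor. Marco, a scavenger receptor of lymph node macrophages, read 2.80, 2.60, 2.22 and 0.70, and Csf1r, the receptor for the macrophage growth factor, read 2.45, 2.18, 2.43 and 1.13. Ms4a7, a membrane protein of macrophages, was 2.04-fold lower, and Adgre1, which encodes the F4/80 antigen, lay just short of the limit at 1.996-fold. Without the edge probes 4 of 19 measured genes were lower, at a median of -0.69. In the aged tumor-bearing pair the list's median was -0.31. Ccr2, a chemokine receptor also found on effector T cells, read -0.64, -0.62, 0.01 and 1.46.

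Other cell types did not all lie on one side. B cell genes, 17 measured of 22, had a median of -0.26 with MC38 and 0.02 without it, none 2-fold apart, and summed to 369, 360, 330 and 272. Dendritic cell genes, 21 measured, had medians of -0.24 and 0.04 and summed to 530, 472, 412 and 337. Ccr7 and Klrd1 of this list are also on the lists of naive T cells and NK cell receptors. Itgax, an integrin that effector CD8 T cells also carry, was 2.53-fold higher with MC38. Genes of CD4 and regulatory T cells had a median of 0.22 with MC38, with 6 of 10 above 0 and Il2ra alone 2-fold apart, and summed to 44.3, 43.9, 58.3 and 77.4, while Cd4 itself read 1.81, 1.57, 1.61 and 1.15. Plasma cell genes, 7 measured, had a median of 0.01, and the 6 measured neutrophil genes summed to 127, 117, 86.9 and 109.5. Of 10 MC38 and epithelial genes 4 were measured; Krt8, Krt19, Cldn4, Muc1, Vil1 and Cdx2 were above background on too few young arrays, and Krt18, a keratin, was 2.83-fold higher with MC38. The part of these cell types in the other differences of the tumor-bearing pair was not tested.

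Few genes differed in the tumor-free pair alone, and several of these belong to cells other than T cells. The haemoglobin genes Hba-a1 and Hba-a2 read -0.13 and -0.24 in tumor-free WT mice and between -2.10 and -2.72 on the other 3 arrays, so that tumor-free WT was the sole high array. The sequences of these genes are nearly the same and their probes may share RNA. Both measured red cell genes were these, and their sum was 1.76 in tumor-free WT against 0.33 to 0.45 on the others. The 3 measured genes of mast cells, basophils and eosinophils, Mcpt4, Cpa3 and Tpsb2, and 2 of 6 measured neutrophil genes, S100a8 and S100a9, were also 2-fold lower in PD-1KO without a tumor. Over all features 0.585% were. The median of the neutrophil list was -0.05 with 2 of 6 above 0. S100a8 read 0.19, -0.90, -0.49 and -0.83, again highest in tumor-free WT.

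Single probes gave the other large differences of that pair. Camk2a, a neuronal kinase subunit, was 4.16 higher in PD-1KO, while its second probe was 0.69 higher. Eaf2, a factor of transcription elongation, read 5.25, 3.09, 5.26 and 4.79, while its second probe was 0.49 higher in PD-1KO. The ribosomal protein gene Rpl14 read 8.17 in tumor-free WT and 9.42, 9.48 and 9.28 on the others. Fscn2, from a probe in the outermost rows, was 1.23 higher and Tshz3 1.20 higher on the log2 scale, and Krtap5-5 was at -1.93. For Stfa3, at least 1.33 higher, and Opn3, at -2.18 or lower, the tumor-bearing WT array was not well above background, so they are not shown to be close with a tumor. Of the 37 features higher and 59 lower without a tumor alone, 11 and 7 had such a bound in the other pair.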

How the data were processed

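RNA of CD8 T cells was hybridized to 8 one-colour arrays on 1 slide, with 1 array per group. The authors used Agilent Feature Extraction 11.0.1.1, per the submitters' processing notes. Its processed signal is, per the file headers, a linear intensity from which background was subtracted and a spatial trend removed, with no scaling across arrays; median spot and background signals are raw intensity. Flags of spots (unit other) were used as deposited. A deposited table of log2 values covers 23971 probes, each column with a median of 9.10; the authors' steps for it are not given in the sources used here.

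Groups came from the labels. From log2 of the processed signal the 75th percentile of its array was subtracted. Of 56605 probes, 21 were dropped for a non-uniform spot and none was saturated, and the 27681 well above background on 2 or more young arrays were kept. A RefSeq table named 32994 probes, the others kept no symbol, and the probe of highest mean over the young arrays stood for a gene. Pairs were called at 2-fold, with no test. Fits were made with R 4.3.3, limma 3.58.1 and the package data.table (version 1.17.8), with age, tumor within age and genotype within age, two-sided, and Benjamini-Hochberg adjustment over all features at 0.05. On simulated data of 21554 features with 200 changed, the fit recovered 0%, 43% and 82% of log2 changes of 1, 2 and 4, with 0, 1 and 3 false calls. The 2-fold rule in both pairs, applied there without the floor, recovered 18.5%, 97% and 100%. It also passed 125, 129 and 137 unchanged features.

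Named genes were Pdcd1, the 10 largest differences each way in both pairs and in the tumor-bearing pair alone, the 5 largest each way in the tumor-free pair alone, leading opposite ones and up to 4 genes per list by mean difference. Any other gene was picked with its values in view. The members and the 27 gene lists were chosen with earlier results of these data known. Promoter sequences are from RefSeq (GRCm38.p6), with no coordinates for probes, whose headers name another build. Alternatives covered background correction, scaling, filters, the fold limit, the model and left-out arrays. Some genes that these rules name are not reported here.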

Additional observations from a re-analysis of the deposited data

Results flagged for a closer look

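Among Pdcd1 and the genes named for both pairs, 3 had opposite signs in young and aged mice: the young PD-1KO arrays lay below WT in both pairs while the aged PD-1KO arrays lay above it. The young minus aged genotype effect was -2.48 for Cbr2 (SE 0.44), -2.48 for F13a1 (SE 0.36) and -2.00 for Pdcd1 (SE 0.71), each with a Benjamini-Hochberg adjusted p of 0.985 in limma. In the aged pairs, Cbr2 was 0.53 and 0.62 higher in PD-1KO, F13a1 0.72 and 1.06 higher, and Pdcd1 1.96 and 0.01 higher, without and with a tumor. Ddit4, a stress-induced inhibitor of the kinase mTOR that was 2-fold lower in both young pairs but not among the 10 largest, also did so, at 1.20 and 0.13 in the aged pairs. For Cbr2 and F13a1 the macrophage and monocyte list lay lower in the young tumor-bearing pair, at a median of -0.85, and its part was not tested. For Pdcd1 the position of the probe relative to the disrupted part of the gene is not known here.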

How the results depend on the processing

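No paired analysis was possible because each group has 1 array and the labels carry no replicate numbers. Counts are given as higher and lower for the tumor-free pair, the tumor-bearing pair, both pairs, opposite directions, the tumor-bearing pair alone and the tumor-free pair alone, as far as they moved by over 1.5 times. With normexp background correction they were 16 and 40, 322 and 115, 4 and 8, 1 and 0, 92 lower, and 8 and 19, and limma called 1 feature, Ctse. With the deposited value table they were 44 and 68, 172 lower, 7 and 11, 2 and 0, 132 lower, and 20 and 37. With all 4 young arrays above background they were 80 lower, 225 lower, 7 higher, and 4 and 0 opposite. Without the filter the tumor-free pair had 162 and 190, and without the floor 130 higher, with 28 higher in both pairs and 19 and 9 opposite. At 1.5-fold they were 436 and 497, 1294 and 1341, 83 and 124, 61 and 24, 1083 and 1073, and 258 and 295. At 3-fold they were 19 and 34, 120 and 101, 2 and 5, 1 and 0, 69 and 60, and 7 and 15. With a bound of 0.25 for the other pair they were 155 lower with the tumor alone, and 17 and 34 without it alone. Without edge probes, an alternative chosen after seeing the data, they were 211 lower with the tumor, 2 in opposite directions, and 147 lower with the tumor alone, and limma called 1 feature, Gm31982. The additive model called 5 features and an intensity trend 1, Ctse. For the genotype effect by tumor state, leaving out 1 array gave 0 to 2 calls, the most, Crlf2 among them, without the aged tumor-bearing PD-1KO array, and 1 unnamed transcript without the young one. Reversed values in the tumor-bearing pair came from a gene's other probe: Plekha6 at 0.11 with all 4 above background, and Crlf2 at 0.027 without edge probes. Other named-gene values were the same in direction and side of the threshold in 1456 cases, weaker in 29 and stronger in 4. Of the 29, 17 came under normexp, 6 with the mean of a gene's probes, 4 without edge probes and 2 without scaling. Where no cause is shown by the setting, the cause was not tested. Signal over background limits the low genes: 8 of the 15 features higher in both pairs rest on a value not well above background.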

Other observations

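Genes of replication-dependent histones, the proteins that package newly made DNA, were also higher in tumor-bearing young PD-1KO mice. This list was chosen after its values were seen, so it supports nothing. Of 38 measured histone genes, 19 were 2-fold higher in PD-1KO with MC38 and none was 2-fold lower, where 2.4% and 1.59% of all features were, at a median difference of 0.99 and a range of -0.25 to 2.15 on the log2 scale. Without a tumor none was 2-fold higher, at a median of 0.25, and in the aged tumor-bearing pair the median was -0.03. Histone genes are near-identical copies of each other, so their probes may share RNA and these values are uncertain as 38 separate readings.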
